A study of Rattus norvegicus with 24 samples.

Results

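Hif1a (ENSRNOG00000008292), Vegfa (ENSRNOG00000019598) and Kdr (ENSRNOG00000046829) form a short axis from oxygen sensing to blood vessel growth. They were taken by gene ID as 3 of the 32883 gene IDs of the count table, and all 3 were among the 14540 IDs that passed the filter on low counts. The table gives IDs without symbols, so the pairing of these 3 IDs with their names comes from the definition of the set and was not checked against an annotation. The study sequenced left ventricular RNA of rats of the outbred Sprague Dawley strain in 24 libraries, 6 for each of 4 treatments. The treatments were Sham (operated control), MI (myocardial infarction, the death of heart muscle after loss of its blood supply, with no patch), Sutured patch (infarction with a patch held by sutures) and Microneedle patch (infarction with a self-interlocking microneedle patch). Tissue of the infarct region was collected at day 7 after infarction and patch implantation; the site sampled in Sham hearts, how the infarct was made and what else the patches carried are not stated in the sources used here. The labels do not tie each library to its own rat. The spread behind the p-values is therefore that of these libraries and may be technical in part.

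In most tissues HIF-1alpha, the product of Hif1a, is made and destroyed continuously: prolyl hydroxylases mark it for degradation when oxygen is plentiful, and it accumulates and activates its target genes when oxygen is scarce. Its activity is therefore set largely at the protein level, which RNA sequencing does not measure. Vegfa encodes the secreted growth factor VEGF-A, a classical HIF target made in the heart by muscle cells, macrophages and fibroblasts among others. Kdr encodes VEGF receptor 2, the main signalling receptor for VEGF-A, which is made mostly by endothelial cells and is commonly used as one of their markers. In bulk tissue, fewer cells of a type and less RNA of a gene per cell cannot be told apart. Markers of endothelium, muscle and other cell types could not be matched to the gene IDs, so their part in the results was not tested.

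The 250 bases upstream of each RefSeq start site are printed because the 3 genes moved in different directions and 2 of them hold the core letters of the hypoxia response element. Capitals mark ACGTG or GCGTG on either strand.
Hif1a promoter, GRCr8 chr6:98359648-98359897, + strand: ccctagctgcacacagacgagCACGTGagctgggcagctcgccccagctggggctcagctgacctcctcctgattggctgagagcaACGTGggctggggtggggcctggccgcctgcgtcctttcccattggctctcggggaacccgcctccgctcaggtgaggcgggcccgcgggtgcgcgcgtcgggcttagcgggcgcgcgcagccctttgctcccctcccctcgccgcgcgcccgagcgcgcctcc
Vegfa promoter, GRCr8 chr9:22452604-22452853, + strand: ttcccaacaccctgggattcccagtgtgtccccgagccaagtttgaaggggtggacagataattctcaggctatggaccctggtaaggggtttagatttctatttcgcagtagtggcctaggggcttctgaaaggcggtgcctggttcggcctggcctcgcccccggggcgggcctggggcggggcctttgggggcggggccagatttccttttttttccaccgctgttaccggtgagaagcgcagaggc
Kdr promoter, GRCr8 chr14:32571813-32572062, + strand: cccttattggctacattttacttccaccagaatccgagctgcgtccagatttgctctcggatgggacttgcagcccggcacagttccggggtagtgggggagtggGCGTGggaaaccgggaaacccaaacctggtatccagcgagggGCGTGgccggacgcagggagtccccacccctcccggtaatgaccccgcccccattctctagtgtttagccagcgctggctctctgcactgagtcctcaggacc
The Hif1a window held 3 matches to ACGTG, beginning 229, 228 and 164 bases upstream of the start; the first and second are the same palindrome read on its 2 strands. The Kdr window held 2 matches to GCGTG, 145 and 103 bases upstream. The Vegfa window held neither; a second RefSeq window of Vegfa, not printed, also held neither. The hypoxia response element described for Vegfa lies farther upstream than these windows reach. Among 33469 RefSeq windows of the same length, 16.6% held ACGTG, 25.9% held GCGTG and 36.7% held at least either of them, so a match is common. The printed Vegfa window held 3 copies of GGGCGG, the core of the GC box, and the Kdr window held 1, on the opposite strand. The Hif1a window and the second Vegfa window held 0. Of all windows, 30.5% held GGGCGG at least once on either strand. These copies are not capitalised. A match describes letters in a reference sequence, not a site in use.

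Total counts were between 12574300 and 14552623 in the 18 libraries with an infarct and between 5443782 and 11757562 in Sham, so that depth and the Sham group cannot be told apart by design. The 3 genes were far from the floor at these depths: the lowest count of any of them in any library was 385. Levels are given as CPM (read counts scaled to a common library size) on TMM-scaled library sizes, with mean ± SD over 6 libraries. Raw counts are not corrected for gene length, so levels are compared between groups and never between genes.

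Hif1a was lowest in Sham and highest with the sutured patch. In Sham it ranged from 57.6 to 165 CPM with a median of 83.5 (99.1 ± 39.9). In MI it ranged from 147 to 235 CPM with a median of 178.9 (178.5 ± 31.2). The MI and Sham ranges touched, because Sham replicate 5, at 165 CPM, lay above MI replicates 1 and 5. With the sutured patch Hif1a ranged from 303 to 575 CPM with a median of 384 (407 ± 104), and with the microneedle patch from 214 to 381 CPM with a median of 269.6 (286 ± 62.2). Every library with a sutured patch lay above every MI library, while the microneedle patch libraries overlapped both.

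**Figure D1:**
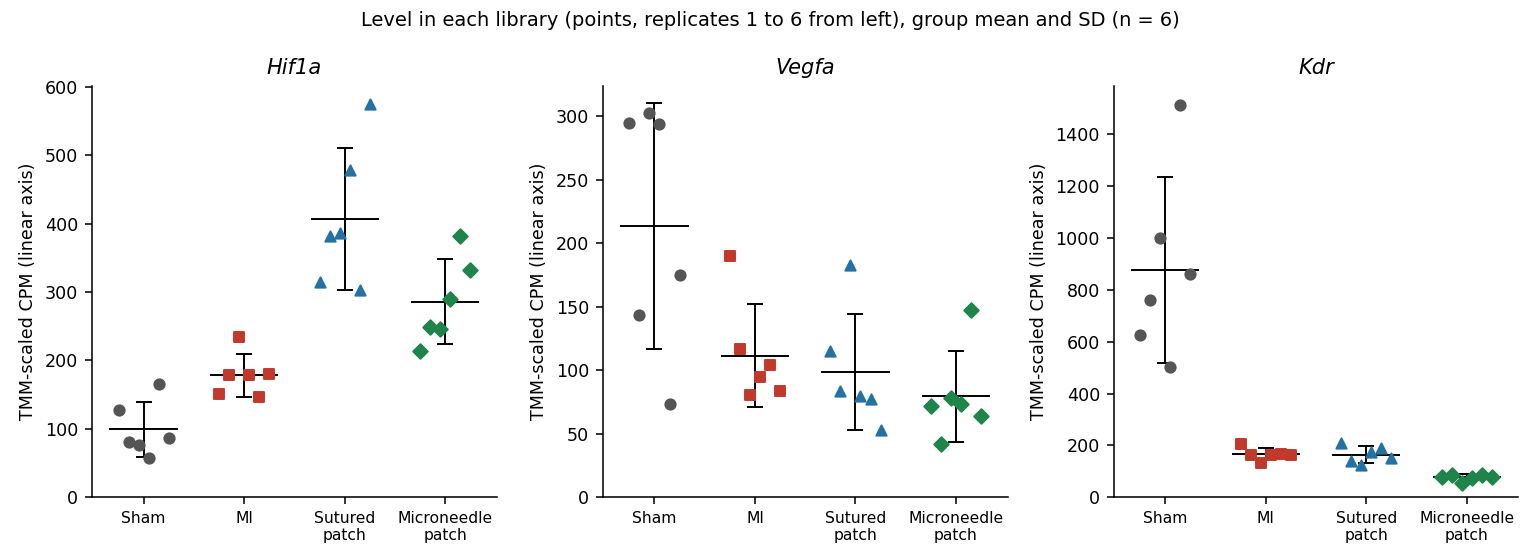
Level of Hif1a, Vegfa and Kdr in each library (points, TMM-scaled CPM on linear axes from 0) in the 4 groups, with the group mean (bar) and SD (error bar, n = 6 each). Hif1a is highest with the sutured patch, at 407 CPM on average, Vegfa is widely spread in Sham, and Kdr falls from 877 CPM in Sham to 76.6 CPM with the microneedle patch.

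Hif1a rose in MI against Sham by a log2 fold change of 0.85 (SE 0.22, edgeR adjusted p = 0.00268). A rise was called for 21.6% of the 14540 genes tested in this comparison and a change in either direction for 44.7%, so a call here is common. With the sutured patch Hif1a rose against MI by 1.19 (SE 0.22, edgeR adjusted p = 0.00276), which is 2.28-fold, and 6 of 6 libraries lay above all MI libraries. In that comparison 2.87% of genes were called higher and 4.59% lay wholly above MI, and the change of Hif1a was larger in size than that of 94.2% of all genes tested. With the microneedle patch the rise against MI was 0.68 (SE 0.22, edgeR adjusted p = 0.038, above all MI libraries in 5 of 6), beside 7.12% of genes called higher.

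The microneedle patch value of Hif1a stood close to the threshold. Its adjusted p was between 0.0538 and 0.0936 without MI replicate 1, 2, 4, 5 or 6 or without microneedle patch replicate 5 or 6, each left out in turn, with log2 fold changes from 0.58 to 0.70 in those 7 fits. With no filter on low counts it was 0.0553 (edgeR). Between the patches, Hif1a was 0.51 lower on the log2 scale with the microneedle patch (SE 0.22, 95% interval -0.96 to -0.060), which did not pass the edgeR test (adjusted p = 0.288, beside 0.172% of genes called lower). The single-gene exact permutation test over all splits of these 12 libraries gave an unadjusted two-sided p = 0.0281. The order of Hif1a was thus sutured patch, microneedle patch, MI and Sham, in which the difference between the first and second did not pass the edgeR test. Against Sham, Hif1a was 4.11-fold higher with the sutured patch (log2 fold change 2.04, SE 0.22, edgeR adjusted p = 6.95e-08, beside 24.1% of genes called higher). With the microneedle patch it was 2.89-fold higher than in Sham (1.53, SE 0.22, edgeR adjusted p = 2.8e-06, beside 25.9%). Both patch groups lay wholly above Sham. Of all genes, 20.4% with the sutured and 25.5% with the microneedle patch lay wholly above or wholly below Sham.

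Vegfa was highest in Sham, where it was also widely spread, and lower in the 3 groups with an infarct. In Sham it ranged from 73.5 to 302 CPM with a median of 234 (213.5 ± 96.8). Sham replicates 1, 3 and 4 stood together between 293 and 302 CPM, while Sham replicate 5, the shallowest library, stood at 73.5 CPM and below every MI library. In MI Vegfa ranged from 80.8 to 189.9 CPM with a median of 99.2 (111.5 ± 40.6), and its highest value was that of replicate 1. With the sutured patch it ranged from 52.7 to 183 CPM with a median of 81.5 (98.6 ± 46.0), and with the microneedle patch from 42.2 to 148 CPM with a median of 72.4 (79.4 ± 35.7). All pairs of groups overlapped.

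Vegfa fell in MI against Sham by 0.94 on the log2 scale (SE 0.34, edgeR adjusted p = 0.0255), in a comparison where 23.2% of genes were called lower. The call was lost without MI replicate 3, 4 or 6 and without Sham replicate 1, 3 or 4, with adjusted p-values from 0.0542 to 0.063. The fall was deeper without Sham replicate 5, at a log2 fold change of -1.11 (edgeR adjusted p = 0.00567). The single-gene exact permutation test gave a two-sided p = 0.0584.

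Neither patch moved Vegfa against MI past the threshold. The log2 fold change was -0.18 with the sutured patch (SE 0.33, 95% interval -0.87 to 0.52, edgeR adjusted p = 0.8, beside 1.67% of genes called lower). It was -0.49 with the microneedle patch (SE 0.33, 95% interval -1.18 to 0.21, edgeR adjusted p = 0.324, beside 7.41% called lower). Of the microneedle patch libraries, 5 of 6 lay below every MI library and replicate 5, at 148 CPM, did not. The patches differed from each other by -0.31 (SE 0.33, 95% interval -1.01 to 0.38, edgeR adjusted p = 0.732). Single libraries moved both microneedle patch values. Leaving out MI replicate 1 brought the value against MI to -0.27, and leaving out microneedle patch replicate 5 brought it to -0.76. Between the patches, the value went to -0.042 when sutured patch replicate 3 was left out and to -0.58 when microneedle patch replicate 5 was. Against Sham, Vegfa fell by 1.11 on the log2 scale with the sutured patch (SE 0.34, edgeR adjusted p = 0.00823, beside 23.8% of genes called lower). With the microneedle patch it fell by 1.43 (SE 0.34, edgeR adjusted p = 0.00102, beside 25.7%). The order of Vegfa was Sham, MI, sutured patch and microneedle patch, and of the neighbours MI and Sham alone passed the test.

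Kdr had the largest change of the 3 genes in each comparison with Sham. In Sham it ranged from 503 to 1514 CPM with a median of 810.2 (877 ± 357). In MI it ranged from 132.9 to 206 CPM with a median of 163 (166 ± 23.4). With the sutured patch it ranged from 123 to 208 CPM with a median of 162 (164 ± 32.6). In the microneedle patch group it ranged from 55.0 to 86.6 CPM with a median of 78.3 (76.6 ± 11.4). The lowest Sham library, at 503 CPM, stood far above the highest library with an infarct, at 208 CPM. MI and the sutured patch covered nearly the same range, and every microneedle patch library lay below all others.

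Kdr fell 5.29-fold in MI against Sham (log2 fold change -2.40, SE 0.21, edgeR adjusted p = 2.94e-09). By log2 fold change it ranked 196 from the lowest among 14540 genes. The MI group lay wholly below Sham for 9.01% of all genes. Sham replicate 5, the shallowest library, had the highest Kdr level at 1514 CPM; without it the log2 fold change was -2.18 (edgeR adjusted p = 8.79e-10). When all libraries were thinned to its total, the value was -2.42 (edgeR adjusted p = 3.12e-09).

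Kdr was the 1 gene of the 3 that passed the test between the patches. Between the sutured patch and MI its log2 fold change was -0.013 (SE 0.20, 95% interval -0.43 to 0.40, edgeR adjusted p = 0.978). With the microneedle patch it fell against MI by 1.11 on the log2 scale, or 2.16-fold (SE 0.20, edgeR adjusted p = 0.00119, lower in 6 of 6 libraries). The microneedle patch group lay wholly below MI for 8.34% of all genes, and 7.41% were called lower. Against the sutured patch Kdr was 2.14-fold lower with the microneedle patch (log2 fold change -1.10, SE 0.20, edgeR adjusted p = 0.0328). It was 1 of 25 genes called lower there, which is 0.172% of those tested, and 6 of 6 libraries lay below every sutured patch library, as they did for 0.557% of all genes.

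The size of the Kdr difference between the patches was steady while its adjusted p was not. With each of the 24 libraries left out in turn the log2 fold change stayed between -1.17 and -1.03. The adjusted p rose above 0.05, to between 0.0517 and 0.0864, without sutured patch replicate 4 or 5 and without microneedle patch replicate 1, 2, 3, 4 or 6. DESeq2 gave -1.10 (adjusted p = 0.000227) and limma-voom with quality weights -1.24 (adjusted p = 0.000122). The single-gene exact permutation test gave a two-sided p = 0.00216, the smallest that 6 against 6 libraries allow. Against Sham, Kdr was 5.34-fold lower with the sutured patch (log2 fold change -2.42, SE 0.21, edgeR adjusted p = 2.12e-09). With the microneedle patch it was 11.4-fold lower (-3.52, SE 0.22, edgeR adjusted p = 7.89e-12). Both patch groups lay wholly below Sham, as did 7.68% of all genes with the sutured and 10.5% with the microneedle patch. The order of Kdr was Sham, MI, sutured patch and microneedle patch, in which MI and the sutured patch did not differ beyond their spread.

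**Figure D2:**
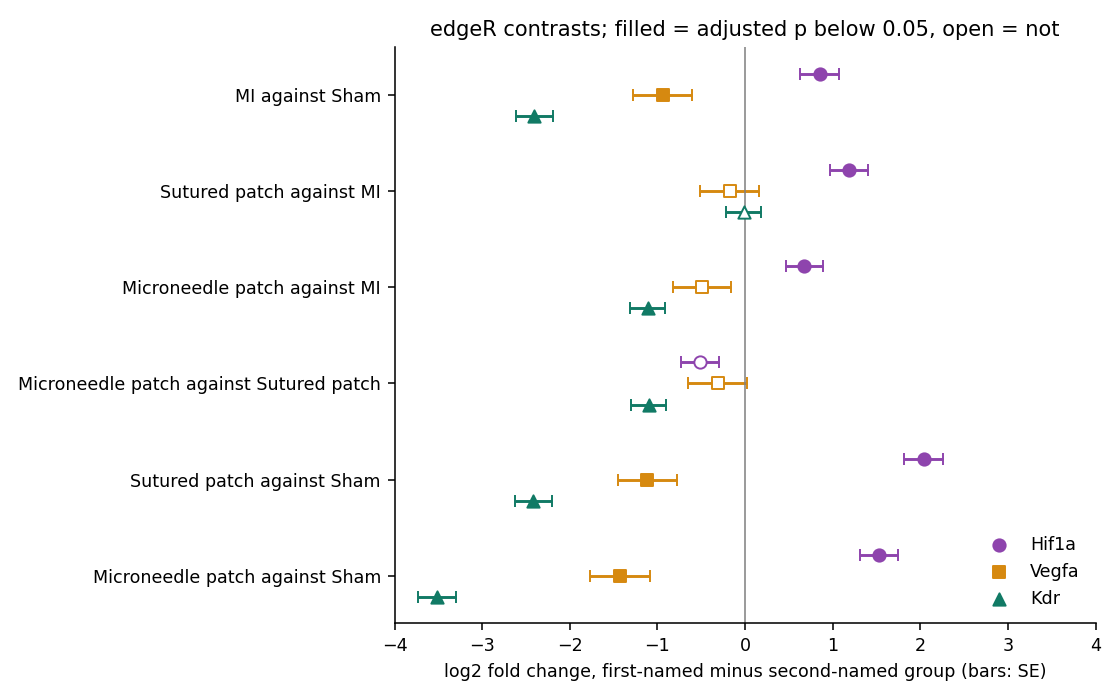
Log2 fold change of Hif1a, Vegfa and Kdr in the 6 comparisons (first-named minus second-named group, bars are SE), filled where the edgeR adjusted p is below 0.05. Hif1a lies to the right of 0 in each comparison with Sham and with MI, Kdr lies near 0 only for the sutured patch against MI, at -0.013, and Vegfa is filled only in the 3 comparisons with Sham.

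Of the 3 genes, then, 3 passed the test in MI against Sham, 1 in the sutured patch against MI, 2 in the microneedle patch against MI and 1 between the patches. The shares of all genes called in either direction were 44.7%, 4.55%, 14.5% and 0.316% in these comparisons. Both patch groups differed from Sham in all 3 genes, beside 48.0% and 51.5% of all genes called. Comparisons that share the Sham or the MI libraries are not independent of each other.

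Leaving out libraries in turn moved 3 of these calls across the threshold and left the others on their side. The 3 were Vegfa in MI against Sham, Hif1a with the microneedle patch against MI, and Kdr between the patches.

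**Figure D3:**
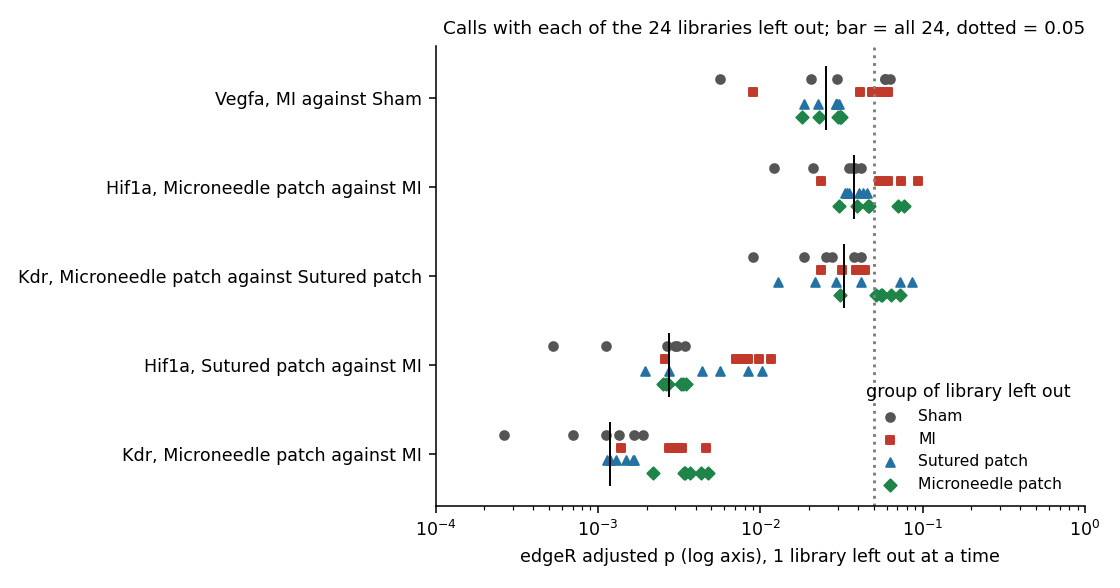
edgeR adjusted p (log axis) of 5 calls with each of the 24 libraries left out in turn, coloured by the group of the library left out; the bar is the value with all libraries and the dotted line 0.05. The upper 3 calls cross the line, with highest values of 0.063, 0.0936 and 0.0864, while Hif1a with the sutured patch and Kdr with the microneedle patch, each against MI, stay at or below 0.0117.

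The ratio of 2 genes within a library does not depend on how libraries are scaled. Ratios are given as log2 of one count over another, with 0.5 added to each, and serve to compare groups, not the abundance of the 2 genes. A difference in a ratio restates the changes of its 2 genes, so these tests are not independent of the edgeR calls above. The share of other gene pairs that differ as much was not computed. In all, 18 ratio comparisons were tested by exact two-sided permutation of 6 against 6 libraries, with Benjamini-Hochberg adjustment over the 18. The smallest p that this design allows is 0.00216. In these data it became 0.00779 after adjustment, a value that depends on how many of the 18 comparisons reach it.

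Of the 3 ratios, that of the receptor Kdr to Hif1a differed most from Sham in each of the 3 groups with an infarct. Its mean was 3.14 ± 0.47 in Sham, -0.10 ± 0.42 in MI, -1.30 ± 0.54 in the sutured patch group and -1.89 ± 0.33 in the microneedle patch group (SD, 6 libraries each). The Sham libraries lay between 2.28 and 3.70, clear of all others. MI libraries lay between -0.82 and 0.45, and every microneedle patch library lay below them, at -1.44 or less. The difference was -3.25 in MI against Sham (exact permutation p = 0.00216, adjusted p = 0.00779), and -1.78 in the microneedle patch against MI (the same p-values). The sutured patch was lower than MI by 1.19 (exact permutation p = 0.00649, adjusted p = 0.0117), with 4 of 6 libraries below all MI libraries. Kdr alone had an edgeR log2 fold change of -0.013 in that comparison, while Hif1a rose by 1.19. In this ratio the patches differed by -0.59, which did not pass after adjustment (exact permutation p = 0.0455, adjusted p = 0.0584). That adjusted p was 0.0494, 0.036 and 0.033 without sutured patch replicate 3, sutured patch replicate 6 and microneedle patch replicate 1.

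The ratio of the ligand Vegfa to Hif1a also fell after infarction and again with each patch. Its mean was 1.03 ± 1.23 in Sham, -0.73 ± 0.63 in MI, -2.12 ± 0.84 in the sutured patch group and -1.92 ± 0.47 in the microneedle patch group. The difference in MI against Sham was -1.76 (exact permutation p = 0.0173, adjusted p = 0.026). Against MI it fell by 1.39 with the sutured patch (exact permutation p = 0.0108, adjusted p = 0.0177) and by 1.20 in the microneedle patch group (exact permutation p = 0.00433, adjusted p = 0.00866). Vegfa alone did not pass the edgeR test against MI with the sutured or the microneedle patch (log2 fold change -0.18 and -0.49). Hif1a rose there by 1.19 and 0.68, so most of each fall in the ratio is the rise of Hif1a. In this ratio the patches differed by 0.20 (exact permutation p = 0.634). Sham replicate 5, at -1.17, was the only Sham library below 0.83.

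The ligand to receptor ratio, Vegfa over Kdr, rose in MI against Sham, as Kdr had fallen further than Vegfa. Its mean was -2.11 ± 1.28 in Sham, -0.63 ± 0.29 in MI, -0.82 ± 0.74 in the sutured patch group and -0.036 ± 0.64 in the microneedle patch group. Against Sham it was higher by 1.49 in MI and by 2.07 with the microneedle patch (exact permutation p = 0.00433, adjusted p = 0.00866 for both). The sutured patch difference from Sham, 1.29, missed the threshold after adjustment (exact permutation p = 0.0455, adjusted p = 0.0584); it passed without Sham replicate 1 (1.49, adjusted p = 0.039) or Sham replicate 4 (1.55, adjusted p = 0.0195). Between the microneedle patch and MI the difference was 0.59 (exact permutation p = 0.0714, adjusted p = 0.0857), and it passed without microneedle patch replicate 2 (0.79, adjusted p = 0.0142). Between the patches it was 0.79 (exact permutation p = 0.0801, adjusted p = 0.0901). Sutured patch replicate 3, at 0.58, was the only library of its group above -0.74. Without it the ratio was lower by 0.48 than in MI (adjusted p = 0.0362), beside a difference of -0.20 with all libraries (exact permutation p = 0.576, adjusted p = 0.61). The microneedle patch was then higher than the sutured patch by 1.07 (adjusted p = 0.0162). That library stands out by this same ratio, so these 2 values are no separate support. In each such comparison 12 fits left out 1 library in turn, and only those named here passed.

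**Figure D4:**
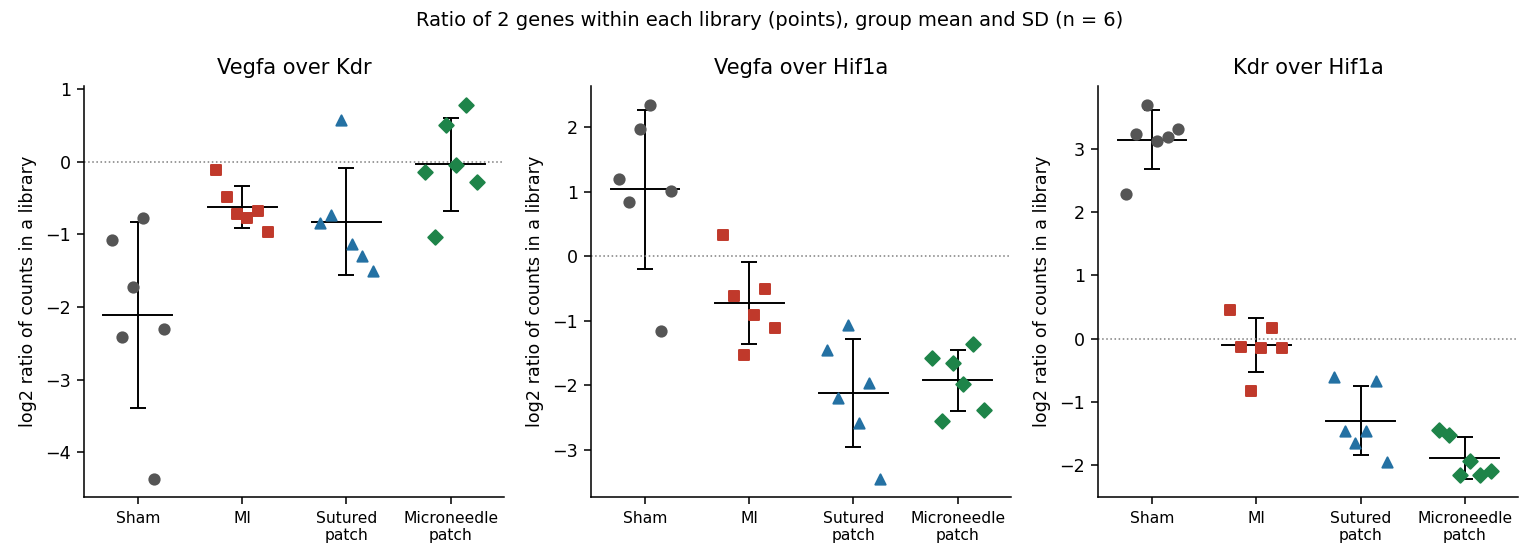
Log2 ratio of the counts of 2 genes within each library (points), by group, with the group mean (bar) and SD (error bar, n = 6). The mean of Kdr over Hif1a is 3.14 in Sham and -1.89 with the microneedle patch, and the 2 patches did not differ past the threshold (exact permutation adjusted p = 0.0584). Both ratios with Vegfa are more widely spread in Sham (SD 1.28 over Kdr and 1.23 over Hif1a) than Kdr over Hif1a (SD 0.47), and replicate 5 is lowest in both.

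Within groups the 3 genes were not tied to each other in any 1 way. Of 12 correlations of log2 CPM (3 pairs of genes in 4 groups, 6 libraries each), 0 passed after adjustment, and 1 had an unadjusted exact permutation p below 0.05 for Pearson's r. It was Vegfa with Kdr in MI (r = 0.88, exact permutation p = 0.0111, adjusted p = 0.133; Spearman's rho = 0.89, exact permutation p = 0.0333, adjusted p = 0.267). Without the 2 libraries farthest from the Vegfa median, among them MI replicate 1 with the highest level of both genes, r was 0.38 over the other 4. With each of the 6 libraries left out in turn r was between 0.62 and 0.94. Kdr with Hif1a in MI gave r = -0.84 (exact permutation p = 0.0972, adjusted p = 0.36) and rho = -0.84 (exact permutation p = 0.0444, adjusted p = 0.267), with r = -0.95 without the 2 libraries farthest from the Kdr median. The other 10 correlations lay between -0.74 and 0.64. Groups separated so clearly that no correlation over all 24 libraries was tested.

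**Figure D5:**
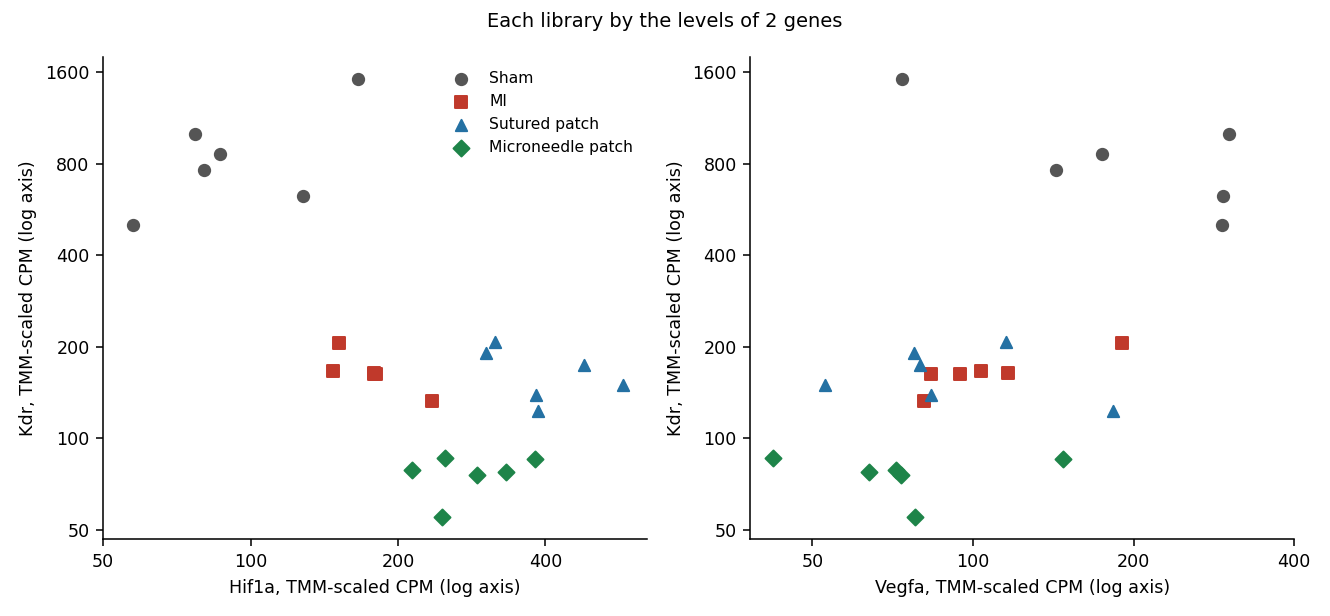
Each library placed by its Hif1a and Kdr levels (left) and its Vegfa and Kdr levels (right), in TMM-scaled CPM on log axes, with symbols by group. Sham libraries form a cloud of high Kdr, microneedle patch libraries 1 of low Kdr at or below 86.6 CPM, and MI and sutured patch libraries share a Kdr range but part along Hif1a.

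The spread between libraries differed among the 3 genes. Vegfa varied more than most genes in each group: its SD of log2 CPM stood above that of 65.8% of genes in Sham, 81.0% in MI, and 77.9% and 76.9% in the sutured and microneedle patch groups. Kdr varied less than most, from 29.7% with the microneedle patch to 47.0% in MI. Hif1a lay near the middle, between 43.1% and 56.3%. These ranks are over all genes tested and are not matched on level. For Vegfa 1 library stood apart in MI (189.9 CPM, the next 116.5) and 1 with the microneedle patch (147.6 CPM, the next 77.9). The median SD over all genes was 0.61 in Sham and 0.21 in MI, so that Sham was the most uneven group for genes in general. Sham replicates 4 and 5, which had the fewest gene IDs detected, held the lowest and highest Sham levels of both Hif1a and Kdr. Their part in the spread of Sham was not tested.

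More genes resembled Kdr across the libraries than resembled Hif1a or Vegfa. Likeness was measured by Pearson's r of log2 CPM over the 24 libraries, given as a description, since groups, depth and libraries are shared by all genes. For Kdr, 252 of the other 14539 genes had r above 0.9, and the closest ID was ENSRNOG00000021318 (r = 0.99), with mean levels of 1429 CPM in Sham, 389 in MI, and 377.5 and 234 in the sutured and microneedle patch groups. For Hif1a, 20 genes were above 0.9, led by ENSRNOG00000059968 (r = 0.96), with 75.3, 128, 227 and 183 CPM in the same order. For Vegfa 0 genes were above 0.9 and 17 above 0.8, and the closest was ENSRNOG00000045637 (r = 0.85), with 103, 70.2, 70.5 and 61.3 CPM. When group means were removed first and r was computed anew over all genes, 40 genes had r above 0.8 with Kdr, 2 with Hif1a and 1 with Vegfa. These need not be genes that were close before. Deviations of Kdr were widest in Sham (SD of log2 CPM 0.55, and 0.20 to 0.29 in the other groups). The closest to Hif1a after removal of group means was ENSRNOG00000004854 (r = 0.82), which averaged 4.15 CPM in Sham and 23.3 in MI. Names of these IDs are not given in the files used here.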

How the data were processed

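The authors deposited unnormalized read counts, as whole numbers, for Ensembl gene IDs in 24 columns of 1 library each. HISAT2, featureCounts and the build rn6 are named, per the submitters' processing notes. Versions, the annotation and the use of strand are unstated in these sources, so reads of overlapping or antisense genes cannot be told apart. Columns were matched to samples by the code in each title; 0 columns stayed unassigned and 0 rows lacked a gene.

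The members and lists were chosen with earlier results of these data known. edgeR 4.0.16 (R 4.3.3) was fitted to all 24 libraries with 4 group means (filterByExpr with a minimum count of 10, TMM, robust quasi-likelihood F test, Benjamini-Hochberg adjustment over 14540 genes, calls at an adjusted p below 0.05), and the code was tested on simulated data. SE is the log2 fold change over the square root of F, and 95% intervals use 20 degrees of freedom. Log2 CPM has a prior count of 2. DESeq2 1.42.0 and limma 3.58.1 were alternatives. All limma-voom fits used quality weights, which count uneven libraries less. Exact tests went through every split, pairing or sign flip in code written for them, and scipy 1.17.1 gave Pearson's r and Spearman's rho. Replicates were never alike within sampling noise (lowest chi-square per degree of freedom 14.6). Counting precision is bounded by totals of 5443782 to 14552623, and intervals cover no other error.

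Genes named are the 3 members and, by likeness, the closest ID to each over 24 libraries, with at most 2 IDs that rose and 2 that fell in MI. The RefSeq gene table (GRCr8) holds 0 Ensembl IDs, so 0 IDs matched, and 8 pathway lists and 9 lists of cell type markers were not run. Promoters, matched by symbol for 3 of 3 genes, are RefSeq sequences of GRCr8, a build other than rn6.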

Additional observations from a re-analysis of the deposited data

Results flagged for a closer look

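Groups of 6 libraries were checked for a single value far from the rest, by the gap to its nearest neighbour over the range of the group (Dixon's 95% critical value of 0.625); 24 groups were checked and 4 stood out, where chance gives about 1 in 20. Vegfa in MI had its highest value at 189.9 CPM, in replicate 1, with the next at 116.5 CPM (gap over range 0.673). Vegfa with the microneedle patch had its highest value at 147.6 CPM, in replicate 5, with the next at 77.9 CPM (0.661). Kdr with the microneedle patch had its lowest value at 55.03 CPM, in replicate 3, with the next at 75.8 CPM (0.659). The log2 ratio of Vegfa over Kdr was highest at 0.58 with the sutured patch, in replicate 3, with the next at -0.74 (0.633).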

How the results depend on the processing

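With each of the 10 alternative settings run, and with each library left out in turn, Kdr kept its direction and its side of the threshold in MI against Sham, in both patches against Sham and in the microneedle patch against MI, and Hif1a did so in MI against Sham, in both patches against Sham and in the sutured patch against MI. The exact permutation test of 1 gene is unadjusted. It gave -0.84 for Vegfa in MI against Sham, past the threshold by edgeR but not here, and -0.50 for Hif1a between the patches, past the threshold here but not by edgeR; the cause was not tested. Hif1a with the microneedle patch against MI was 0.67 with no filter on low counts, where more genes are tested, and 0.65 with a replicate block, both just over the threshold. Kdr in the sutured patch against MI, which is near 0, was 0.054 with limma-voom.

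Leaving out 1 library at a time gave ranges of -1.15 to -0.81 for Vegfa in MI against Sham, 0.58 to 0.79 for Hif1a with the microneedle patch against MI, -1.17 to -1.03 for Kdr between the patches, and, across 0, -0.070 to 0.058 for Kdr and -0.45 to 0.041 for Vegfa in the sutured patch against MI. Vegfa ranged from -0.76 to -0.27 in the microneedle patch against MI and from -0.58 to -0.042 between the patches. For the ratio of Vegfa over Kdr the ranges were 0.83 to 1.55 in the sutured patch against Sham, -0.48 to -0.064 in the sutured patch against MI, 0.62 to 1.07 between the patches and 0.42 to 0.79 in the microneedle patch against MI. Between the patches Kdr over Hif1a ranged from -0.72 to -0.45 and Vegfa over Hif1a from -0.068 to 0.41. Correlations of Vegfa with Kdr ranged from -0.58 to 0.62 with the sutured patch and -0.66 to 0.34 with the microneedle patch, and those of Vegfa with Hif1a from -0.91 to 0.0033 in Sham and -0.0029 to 0.73 with the microneedle patch. The microneedle patch correlation of Vegfa with Kdr turned from -0.036 to 0.12 without the log and to 0.20 with library totals.

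The replicate numbers are shared by all groups, but the labels tie no libraries together. Deviations of same-numbered libraries correlated above 0.1 in 19 of 36 pairs (6 numbers in 6 comparisons), with r from -0.14 to 0.44. In 11 of the 36 pairs the same-numbered library was the best match among the 6 of the other group, where random matching gives 1 in 6. The numbers were not taken as a pairing because no label gives one. These values do not settle whether the numbers link libraries. With a replicate block in edgeR, the count of genes called between the patches was 159 in place of 46. For the ratios a paired sign-flip test over 6 pairs passed in no comparison after adjustment (lowest adjusted p = 0.0511). Its smallest unadjusted p passes after adjustment only where most of the 18 comparisons reach it, so its losses say little. Vegfa over Hif1a had a paired sign-flip adjusted p = 0.0865 in MI against Sham and in the sutured patch against MI. The mean of paired differences equals the difference of group means by arithmetic, so the values could not change. In the comparisons that lost the call they were 1.49 and 2.07 for Vegfa over Kdr in MI and in the microneedle patch against Sham. For Vegfa over Hif1a they were -1.76, -1.39, -1.20, -3.15 and -2.96 in MI against Sham, both patches against MI and both against Sham. For Kdr over Hif1a they were -3.25, -1.19, -1.78, -4.44 and -5.03 in the same order.

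The counts of all genes called, against which the members are read, moved with the settings. All limma-voom counts here are with quality weights. For the sutured patch against MI (661) the count was 1143 with DESeq2, 3148 with limma-voom, 2141 with the 2 groups alone, 1715 without Sham replicates 4 and 5, and 308 to 1408 with 1 library left out. For the microneedle patch against MI (2112) it was 5097 with limma-voom, 4593 with the 2 groups alone, 3804 without Sham replicates 4 and 5, and 1036 to 3482 with 1 library left out. Between the patches (46) it was 28 with no filter, 431 with DESeq2, 802 with limma-voom, 499 without Sham replicates 4 and 5, and 0 to 302 with 1 library left out. The count of 0 by edgeR arose without sutured patch replicate 4 or 5 or microneedle patch replicate 2, where 1516, 1630 and 1487 genes had an unadjusted p below 0.05; other tools were not run on those sets. The lowest count of the 3 genes in any library was 385.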
